A study of Mus musculus with 3 samples.

Results

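The 10 genes described here are 8 immediate early genes, namely *Fos*, *Fosb*, *Jun*, *Junb*, *Egr1*, *Atf3*, *Ier2*, and *Dusp1*, and the 2 genes of the inducible heat shock protein HSP70, *Hspa1a* and *Hspa1b*. They were chosen by symbol and not by a measured value, and all 10 were found among the 28692 genes of the count tables. They were measured by scRNA-Seq in whole lungs of 3 wild-type C57BL/6 mice (mice 2, 3, and 4), which were kept in room air from P1 to P14 and euthanized with pentobarbital at P14. The mice carried no engineered allele and form 1 condition, so the comparisons were between the cells of these lungs, and the mice were the replicates. The lungs were digested fresh into single cells, and no lung was measured without digestion. Activation in the animal and a response to the digestion therefore cannot be told apart in these data.

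Immediate early genes are transcribed within minutes of a stimulus and need no new protein synthesis, because the kinases and factors that switch them on, among them ERK, p38, SRF with its ternary complex partners, and CREB, are already present in the resting cell. FOS and JUN family proteins pair to form AP-1, which binds DNA and drives the next wave of genes, while DUSP1 removes phosphates from MAP kinases and so ends the signal. Heat shock genes are switched on by HSF1 when proteins unfold, through heat shock elements in their promoters, and both groups are known to be induced when tissue is warmed and digested with enzymes.

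The promoters of 5 of the genes are shown because these genes led in different cells, *Fos* and *Dusp1* in neutrophils, *Jun* in ECs, and the HSP70 genes in dendritic cells. Each is the 250 bases before the transcription start in RefSeq (GRCm38.p6). They lie at chr12:85473640-85473889 (+ strand) for *Fos*, chr4:95052223-95052472 (− strand) for *Jun*, chr17:26508473-26508722 (− strand) for *Dusp1*, chr17:34972157-34972406 (− strand) for *Hspa1a*, and chr17:34959239-34959488 (− strand) for *Hspa1b*. Capitals mark TGACG, the core of a cAMP response element, and TATAAA in *Fos*, TGACATCA in *Jun*, TGACGTCA and TGACG in *Dusp1*, and a match to GAANNTTC, the core of a heat shock element, in the HSP70 genes.
Fos: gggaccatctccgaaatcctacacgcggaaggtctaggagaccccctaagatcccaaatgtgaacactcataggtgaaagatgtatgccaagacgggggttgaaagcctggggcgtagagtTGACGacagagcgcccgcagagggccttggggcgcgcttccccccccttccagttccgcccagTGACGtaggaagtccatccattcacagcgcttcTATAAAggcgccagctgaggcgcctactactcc
Jun: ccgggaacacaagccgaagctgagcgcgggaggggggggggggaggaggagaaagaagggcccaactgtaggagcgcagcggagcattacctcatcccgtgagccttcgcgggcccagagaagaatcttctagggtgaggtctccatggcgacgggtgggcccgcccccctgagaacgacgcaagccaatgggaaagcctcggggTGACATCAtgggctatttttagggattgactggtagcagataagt
Dusp1: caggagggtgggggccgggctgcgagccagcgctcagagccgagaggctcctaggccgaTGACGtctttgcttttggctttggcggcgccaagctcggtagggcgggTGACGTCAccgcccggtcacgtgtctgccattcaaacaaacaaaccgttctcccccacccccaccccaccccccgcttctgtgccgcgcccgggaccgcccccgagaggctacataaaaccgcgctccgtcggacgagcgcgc
Hspa1a: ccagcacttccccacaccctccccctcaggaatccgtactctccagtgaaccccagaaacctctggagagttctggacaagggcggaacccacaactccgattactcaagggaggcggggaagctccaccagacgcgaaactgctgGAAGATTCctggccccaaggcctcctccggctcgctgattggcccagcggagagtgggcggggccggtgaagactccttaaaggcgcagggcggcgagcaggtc
Hspa1b: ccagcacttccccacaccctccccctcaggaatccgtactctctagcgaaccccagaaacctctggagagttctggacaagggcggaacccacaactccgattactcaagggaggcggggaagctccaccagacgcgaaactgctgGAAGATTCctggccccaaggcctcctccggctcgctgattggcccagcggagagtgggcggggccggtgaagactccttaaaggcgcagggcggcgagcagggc

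RefSeq promoters were matched for 8 of the 10 genes, and those of *Egr1* and *Ier2* are named only. Motifs were searched on both strands in windows that also took in the first 50 bases after the start. The letters GAANNTTC were found in *Hspa1a*, *Hspa1b*, and *Jun* and in 7.95% of 27025 promoters, and TTCNNGAA was found in none of the 8 genes and in 8.40% of promoters. The full cAMP response element TGACGTCA was found in *Dusp1* and in 1.88% of promoters, the letters TGACG in *Fos*, *Fosb*, *Junb*, *Atf3*, and *Dusp1* and in 21.02%, and every TGACGTCA holds a TGACG. TGACATCA was found in *Jun* and in 3.76% of promoters, and TTACGTCA, which holds a TGACG on the other strand, was found in *Atf3* and in 0.533%. The AP-1 letters TGACTCA were in none of the 8 windows and in 5.17% of promoters, and the CArG box that SRF binds was in none of them and in 1.57%. A match describes only these windows. The *Hspa1a* and *Hspa1b* windows were 98.7% identical over 300 bases, with 4 differences (C44T, T47C, T249G, and C276T, *Hspa1a* first and counted from 1 at the 5′ end). The 2 genes lie side by side on chromosome 17, *Hspa1a* at 34969190 to 34972156 and *Hspa1b* at 34956436 to 34959238 (GRCm38, GENCODE M21, whole gene spans). In the same build the other genes span 85473890 to 85477273 of chromosome 12 for *Fos*, 19302696 to 19310051 of chromosome 7 for *Fosb*, 95049034 to 95052222 of chromosome 4 for *Jun*, 84974484 to 84978718 of chromosome 8 for *Junb*, 34859823 to 34864984 of chromosome 18 for *Egr1*, 191170296 to 191218039 of chromosome 1 for *Atf3*, 84661331 to 84662852 of chromosome 8 for *Ier2*, and 26505590 to 26562128 of chromosome 17 for *Dusp1*. Reads that match both copies can be lost or split in counting, so the division between them is uncertain, and their sum is given as well.

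Transcripts were counted by unique molecular identifiers (UMIs), tags that mark each captured molecule before amplification. The tables held 3034, 3135, and 3475 droplets of mice 2, 3, and 4 with 71413428 UMIs, of which 7642 were kept because they passed a minimum of 200 genes and a limit of 20% mitochondrial UMIs (median 7119, 4853, and 6453 UMIs in the 3 mice). The cells were clustered without the 10 genes and without the gene lists described below. Clusters were named from marker genes, which gave 19 types in 4 classes: immune cells (3025 cells), stromal cells (1498), endothelial cells (ECs, 960), and epithelial cells (1257). The immune class also held 65 cells and the stromal class 218 cells of no type, and the other 902 cells were put in no class. The names stand for cells that look like these types by their RNA, and *Col14a1*-type fibroblasts also held cells with the cartilage genes *Col2a1* and *Acan*. The lymphatic genes *Ccl21a* and *Mmrn1* were among the 10 leading genes of the venous cluster, each in under 10% of its cells. In the club cluster, 4 markers of ciliated cells were each found in at least 10% of cells. The same was true of 4 T cell markers in the NK cluster and of 5 monocyte markers in the interstitial macrophage cluster. A cluster of 45 basophil-like or mast-like cells, counted in the immune class, held too few cells of mouse 2 to be compared as a type. Between 2 and 5 barcodes were shared by any pair of libraries.

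The 10 genes held 79702 UMIs in the kept cells, which was 1074, 1350, and 1180 UMIs per 1000000 (CPM) of mice 2, 3, and 4. *Jun*, whose protein is the main partner of FOS in AP-1, gave the most UMIs (17483), and *Hspa1b* the fewest (1077). At least 1 UMI was found in 43.5% of kept cells for *Ier2*, 43.0% for *Jun*, 38.1% for *Dusp1*, 38.0% for *Junb*, 19.1% for *Egr1*, 17.5% for *Fos*, 9.79% for *Fosb*, 6.69% for *Hspa1a*, 5.71% for *Atf3*, and 3.82% for *Hspa1b*. These shares depend on depth, so levels below are CPM of UMIs summed per mouse and cell type. Values of different genes were not scaled by transcript length, but the assay counts the 3′ end of each transcript once.

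**Figure D1:**
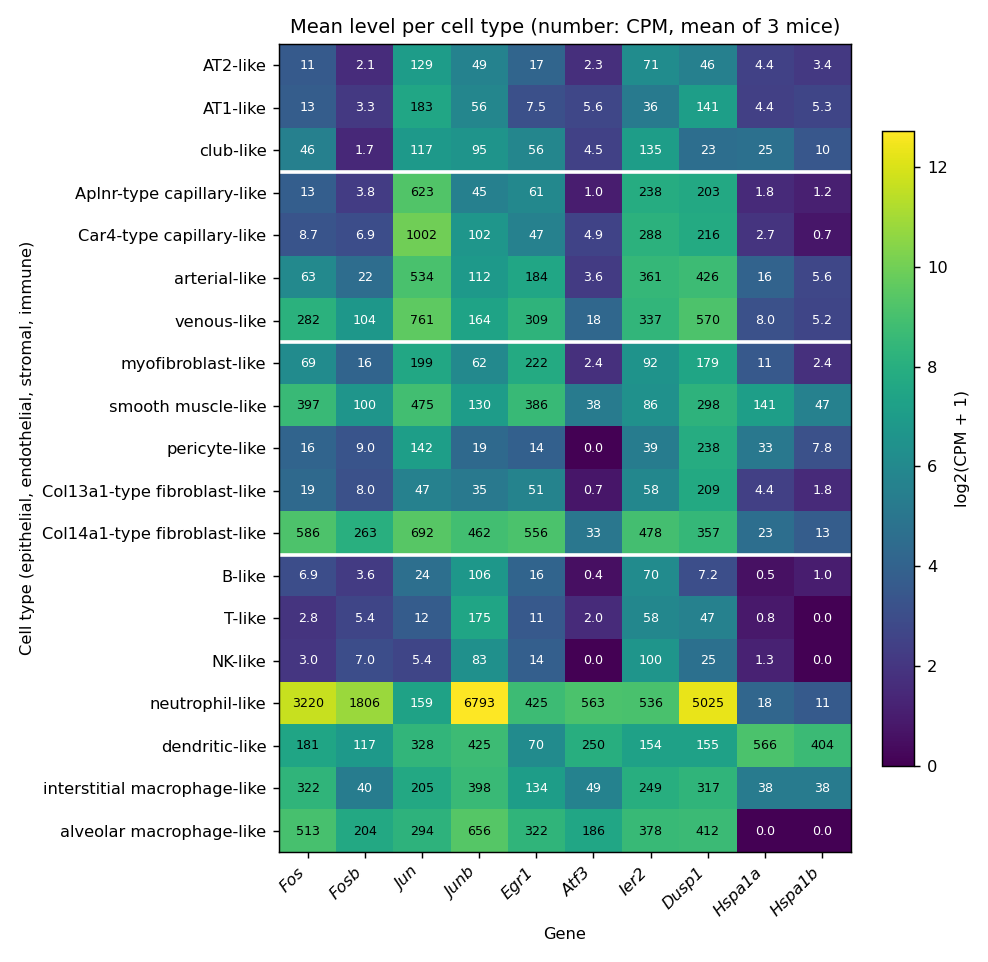
Mean level in CPM over 3 mice of each of the 10 genes (columns) in 19 cell types (rows), with a color scale in log2(CPM + 1) and the CPM printed in each cell. Neutrophils have the highest *Fos*, *Fosb*, *Junb*, *Atf3*, *Ier2*, and *Dusp1*, dendritic cells the highest *Hspa1a* and *Hspa1b*, and *Car4*-type capillary ECs the highest *Jun*.

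*Fos*, the founding member of the FOS family, was highest in neutrophils, at 3484, 3082, and 3093 CPM in mice 2, 3, and 4 (3220 ± 229, SD, n = 3). The next level was that of *Col14a1*-type fibroblasts, at 266, 695, and 797 CPM, and the lowest neutrophil value lay above every value of that type. Alveolar macrophages (565, 178, and 797 CPM), smooth muscle cells (275, 357, and 559), interstitial macrophages (197, 346, and 423), and venous ECs (248, 331, and 268) followed, and their values overlapped. *Fos* was low and even in *Aplnr*-type capillary ECs, at 12.5, 13.4, and 13.0 CPM, and in B cells, at 6.63, 7.17, and 6.93 CPM. The lowest mean was that of T cells, at 0, 4.93, and 3.53 CPM, which put 1141-fold between the highest and the lowest type mean. Of 18 pairs of neighbors in the order of *Fos* levels, 3 were separated in all mice, and the other 15 overlapped. *Fosb*, another FOS family member, had a similar order, with 1857, 1883, and 1677 CPM in neutrophils and 95.6, 329, and 365 CPM in *Col14a1*-type fibroblasts. Its lowest mean was that of club cells, at 4.06, 0, and 1.10 CPM.

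*Jun* had another order, led by ECs. *Car4*-type capillary ECs, the wide thin-walled capillary cells also called aerocytes, had 1056, 1011, and 939 CPM (1002 ± 59.1, n = 3). Venous ECs had 578, 944, and 762 CPM, *Col14a1*-type fibroblasts, the only other type among the first 5, 403, 795, and 878, *Aplnr*-type capillary ECs 630, 606, and 634, and arterial ECs 490, 562, and 550. The highest venous value passed the lowest *Car4*-type value, so the levels of these neighbors overlapped, whereas every *Car4*-type value lay above those of the *Aplnr*-type and arterial ECs. Neutrophils, highest for the FOS genes, had only 198, 131, and 149 CPM of *Jun*. The lowest levels were those of NK cells, at 6.30, 5.96, and 3.93 CPM, and T cells, at 0, 22.2, and 14.1 CPM, and B cells had 24.9, 24.2, and 24.0 CPM. The largest unnamed cluster, 452 cells with a median of 843.5 UMIs, had 901, 957, and 995 CPM of *Jun*. At full depth, *Jun* was found in most single cells of the leading types. A UMI was found in 483 of 526 *Aplnr*-type capillary ECs (91.8%) and in 141 of 171 *Car4*-type capillary ECs (82.5%). These shares depend on depth. Over all ECs, the mean share of the mice was 87.8% at full depth and 45.9% with cells thinned to an equal number of UMIs. The thinned share left out 72 ECs with too few UMIs. With thinning, the mean share was 64.4% in *Car4*-type and 43.6% in *Aplnr*-type capillary ECs, the reverse of the order at full depth. Of these types, 48 and 17 cells were left out, respectively.

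*Junb*, a JUN family member that can restrain JUN, followed the FOS genes and not *Jun*. It had 7579, 6748, and 6053 CPM in neutrophils, the highest level of any of the 10 genes in any type, then 785, 477, and 705 CPM in alveolar macrophages. Its lowest level was that of pericytes, at 21.04, 20.5, and 16.5 CPM. The *Junb* gene is overlapped on the opposite strand by *Prdx2*, which had 12966 UMIs in the kept cells. The strand setting of the counting was not given in the sources used here, and whether reads of *Prdx2* were counted as *Junb* was not tested. The same holds for *Jun* and its antisense gene *Junos* (180 UMIs). Over the 19 type means of log2(CPM + 1), Pearson's r between *Jun* and *Junb* was 0.153, against 0.911 between *Fos* and *Fosb*. These correlations describe 19 means that share 3 libraries.

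*Atf3*, a stress-induced repressor of the ATF family that pairs with JUN proteins, was highest in neutrophils, dendritic cells, and alveolar macrophages. Neutrophils had 654, 525, and 509 CPM, dendritic cells 319, 266, and 166, and alveolar macrophages 377, 30.5, and 150. The neutrophil values lay above all dendritic cell values, whereas dendritic cells and alveolar macrophages overlapped. The 18 dendritic cells with most *Atf3* held 91.1% of its UMIs, and the 7 such alveolar macrophages 94.8%. Interstitial macrophages, at a mean of 48.7 CPM (SD 48.9), overlapped with smooth muscle cells, at 37.7 CPM. The basophil-like or mast-like cluster had no *Atf3* UMI. In pericytes and NK cells no *Atf3* UMI was found, which allows up to 4.16 and 2.79 CPM (3 counts of the summed UMIs of each type, counting error only).

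*Egr1*, a zinc finger factor that relays growth and stretch signals, was spread more evenly. *Col14a1*-type fibroblasts had 324, 717, and 628 CPM, neutrophils 376, 387, and 512, and smooth muscle cells 415, 367, and 376, and these 3 types overlapped. Alveolar macrophages had 353, 259, and 353 CPM, venous ECs 245, 437, and 245, and myofibroblasts 223, 194, and 250. AT1 cells were lowest, at 9.67, 0, and 12.9 CPM. Between neighbors in the order, 1 of 18 pairs was separated in all mice, so the ranking of *Egr1* levels is loose.

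*Ier2*, a nuclear factor of the immediate early response, had the smallest range, with 15.1-fold between the highest and the lowest type mean. Neutrophils had 464, 531, and 613 CPM and overlapped with *Col14a1*-type fibroblasts, at 306, 418, and 710 CPM. AT1 cells had 22.6, 34.0, and 50.05 CPM and pericytes 39.1, 20.5, and 57.8. The endothelial types stood close together, from 229 CPM in the lowest *Aplnr*-type value to 448 CPM in the highest venous value.

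*Dusp1*, the phosphatase that shuts off p38 and JNK, had 5507, 4967, and 4601 CPM in neutrophils and 471, 596, and 643 CPM in venous ECs. Arterial ECs (300, 562, and 417 CPM) and alveolar macrophages (542, 203, and 490 CPM) overlapped with venous ECs. B cells had the lowest level, at 3.32, 11.4, and 6.93 CPM, which was 696-fold under the neutrophil mean. The annotated span of *Dusp1* overlaps *Ergic1* on the other strand (2112 UMIs in the kept cells).

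*Hspa1a*, one of the genes of stress-inducible HSP70, was highest in dendritic cells, at 601, 750, and 346 CPM, and next in smooth muscle cells, at 115, 170, and 137 CPM. The groups did not overlap, and smooth muscle cells in turn lay above every value of interstitial macrophages (0, 69.1, and 45.6 CPM), the next type. *Hspa1b* gave the same leading types, with 434, 417, and 362 CPM in dendritic cells, 46.4, 42.6, and 53.2 in smooth muscle cells, and 9.86, 104, and 0 in interstitial macrophages. Alveolar macrophages had no UMI of either gene among 477398 UMIs, which allows up to 6.28 CPM, although they were among the higher types for *Fos*, *Egr1*, and *Atf3*. Neutrophils had 12.1, 9.61, and 31.0 CPM of *Hspa1a*, below every dendritic and smooth muscle value. Over the 19 type means, r was 0.957 between *Hspa1a* and *Hspa1b*.

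**Figure D2:**
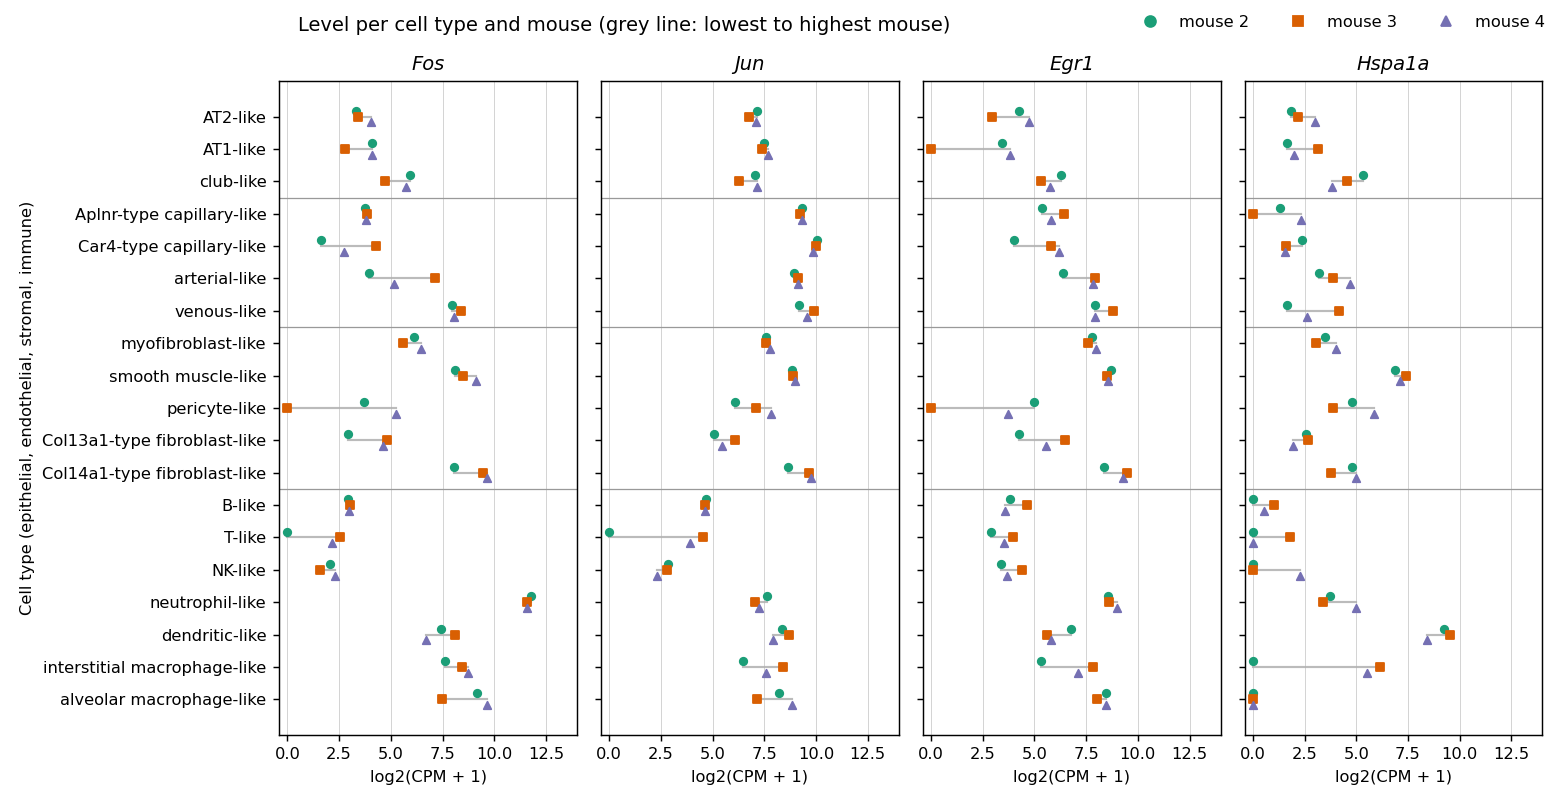
Level in log2(CPM + 1) of *Fos*, *Jun*, *Egr1*, and *Hspa1a* in each of 19 cell types, 1 point per mouse (mice 2, 3, and 4) and a grey line from the lowest to the highest mouse. For *Fos* the 3 neutrophil points, 3082 to 3484 CPM, sit apart from all other types, while for *Egr1* the upper types overlap.

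The 8 immediate early genes together made up a median of 2.04% of the UMIs of a neutrophil (10th to 90th percentile 0.947% to 3.40%, 465 cells), with medians of 2.28%, 2.00%, and 1.96% in the 3 mice. No neutrophil lacked them. In B cells, the largest type, the median was 0.0130%, and 871 of 1784 cells had none. Neutrophils had few UMIs (median 2133 per cell) and few mitochondrial UMIs (median 0.907%), against 3960.5 UMIs and 10.6% in B cells, and the part of these differences in the levels was not tested. In other types a minority of cells carried much of the signal. *Col14a1*-type fibroblasts had a median of 0.0944% but a 90th percentile of 0.601%. In smooth muscle cells *Fos* was found in 182 of 320 cells, and the 32 cells with most *Fos* held 61.1% of its UMIs.

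*Hspa1a* in dendritic cells came from few cells. Of 933 UMIs in 181 dendritic cells, the top 18 cells held 80.5%, and a UMI was found in 44 cells, 12 of mouse 2, 21 of mouse 3, and 11 of mouse 4. In those 44 cells the median was 16.5 UMIs and the highest 94, and 25 cells had at least 10. *Hspa1b* was found in 48 cells with a median of 10.0 UMIs, and 41 cells had both genes, 3 only *Hspa1a*, 7 only *Hspa1b*, and 130 neither. In smooth muscle cells at full depth, *Hspa1a* was found in more of the cells, 205 of 320 (64.1%). The median in those was only 2.00 UMIs and the highest value 28. Such shares depend on depth. With cells thinned to an equal number of UMIs, the mean share with *Hspa1a* was 17.8% (SD 4.4) in dendritic cells and 12.4% (SD 3.0) in smooth muscle cells. At full depth these means were 24.1% and 65.1%, so the order of these types turned. Thinning left out 27 dendritic cells with too few UMIs. In all stromal cells the mean share fell from 20.9% to 3.48%. In all immune cells it fell from 2.33% to 1.33%. Free RNA can give single UMIs, and its part was not tested. The share of cells with *Hspa1a* at full depth was 0.280% in B cells (5 of 1784, median 3960.5 UMIs) and 2.80% in neutrophils (13 of 465, median 2133 UMIs). It was 31.25% in club cells (15 of 48, median 38565 UMIs), 21% in *Col14a1*-type fibroblasts, and 20.9% in pericytes.

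Within dendritic cells of each mouse, Pearson's r with *Hspa1a* over cells, of log UMIs per total, was 0.900, 0.858, and 0.886 for *Hspa1b*, 0.757, 0.464, and 0.675 for *Atf3*, and 0.593, 0.707, and 0.578 for *Jun*. For *Fos* it was −0.0912, 0.299, and 0.195. Other heat shock genes were weaker, with 0.302, 0.406, and 0.264 for *Hsp90aa1*, the stress-inducible HSP90, and 0.285, 0.169, and 0.425 for *Dnajb1*, an HSP40 that works with HSP70. For markers of dendritic cell kinds, r was 0.280, 0.393, and 0.318 for *Cd209a*, a marker of type 2 conventional dendritic cells, and −0.392, −0.380, and −0.248 for *Clec9a*, a marker of type 1. Cells with HSP70 UMIs also had more UMIs in all (median 12605 against 6996), and r with the total was 0.193, 0.288, and 0.243. The part of depth and of doublets in these relations was not tested. *Hspa1a* was itself among the 10 leading genes of the dendritic cluster, although it was not used in clustering.

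**Figure D3:**
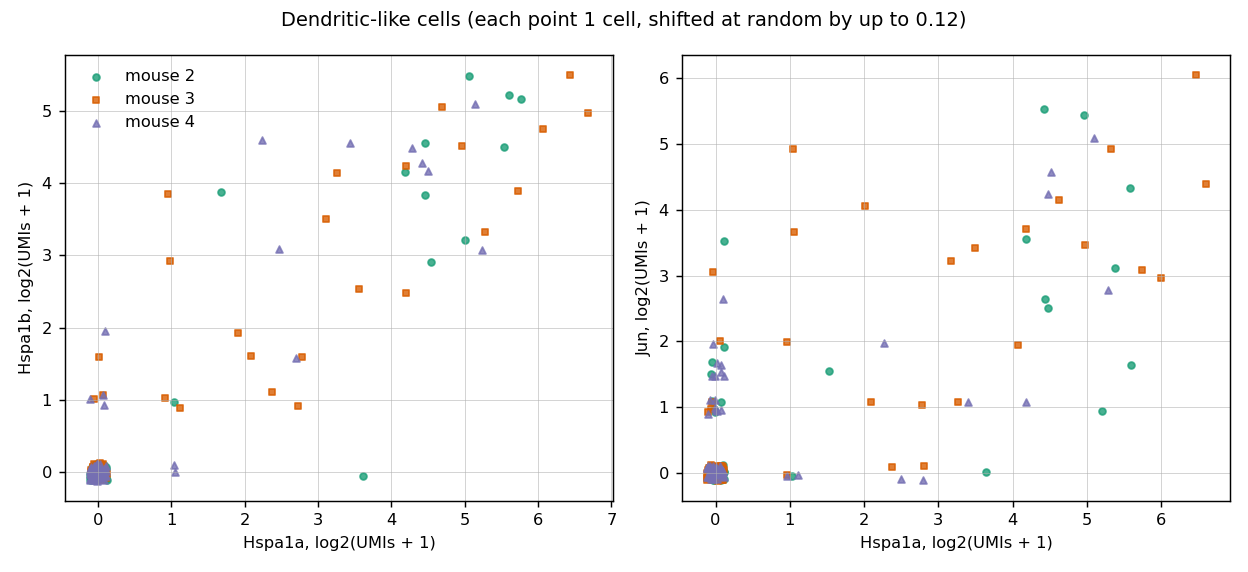
Each point is 1 of 181 dendritic cells, with UMIs of *Hspa1a* on the x axis and of *Hspa1b* or *Jun* on the y axis, both as log2(UMIs + 1), and colors for the 3 mice. Most cells sit at 0 for both heat shock genes (130 cells), and 41 cells of all 3 mice have both.

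The classes were compared with edgeR's quasi-likelihood test on UMIs summed per mouse and class, each class against the mean of the other 3, with Benjamini-Hochberg adjustment over 14208 genes and a threshold of 0.05. Of all genes tested, 37.7% were higher and 38.3% lower in immune cells, 29.7% and 30% in ECs, 36.3% and 30.5% in stromal cells, and 34.5% and 36.7% in epithelial cells. Against this background, 7 of the 10 genes were higher and 1 lower in immune cells, 3 higher and 6 lower in ECs, 6 higher and 2 lower in stromal cells, and all 10 lower in epithelial cells. The median log2 fold change of the 10 genes was 2.62 in immune cells, −0.97 in ECs, 0.58 in stromal cells, and −1.79 in epithelial cells, whereas the median of all genes lay between −0.090 and −0.0055. Each contrast also takes in the levels of the other classes, so the 4 contrasts are not independent. Without TMM scaling, the median of all genes moved by −0.048 in immune cells, 0.13 in stromal cells, 0.28 in ECs, and −0.36 in epithelial cells, and the genes called higher and lower went from 4221 and 4259 to 6243 and 2816 in ECs and from 4905 and 5209 to 3481 and 7588 in epithelial cells.

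In immune cells, *Fos* had 307, 300, and 338 CPM, against 42.8, 80.4, and 42.6 in ECs, and the groups did not overlap. Its log2 fold change against the other classes was 2.59 (SE 0.17, adjusted p = 1.7e-09). *Junb* rose by 3.26 (SE 0.12, adjusted p = 2.43e-12) and *Atf3* by 3.97 (SE 0.24, adjusted p = 7.18e-10). *Jun* alone was lower, with 90.8, 108, and 79.7 CPM in immune cells against 661, 723, and 680 in ECs, and a log2 fold change of −1.63 (SE 0.12, adjusted p = 8.28e-09). *Ier2* (0.14, adjusted p = 0.306) and *Egr1* (−0.19, adjusted p = 0.447) did not pass the test.

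The immune values turned on neutrophils and dendritic cells. In alternatives chosen after seeing the data, neutrophils, dendritic cells, or both were left out of the immune class. Without neutrophils, *Fos* had a log2 fold change of 0.21 (adjusted p = 0.385) in immune cells and *Dusp1* was lower, at −1.35 (adjusted p = 2.24e-06, against 1.64 and 2.13e-08 with them). Without dendritic cells, *Hspa1a* was lower, at −1.67 (adjusted p = 7.1e-05, against 2.65 and 3.23e-09 with them), and *Hspa1b* had −0.57 (adjusted p = 0.131). Without both, 1 gene was higher (*Junb*, which passed in every alternative run) and 6 were lower. The contrasts of the other classes moved as well, and *Fos* in ECs went from −1.13 (adjusted p = 0.000349) to −0.34 (adjusted p = 0.207) without neutrophils.

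In ECs, *Jun* was higher by 1.88 on the log2 scale (SE 0.10, adjusted p = 2.57e-10). *Ier2*, with 259, 291, and 277 CPM in ECs and 131, 131, and 166 CPM in immune cells, the next class, was higher by 1.07 (SE 0.11, adjusted p = 8.76e-07). Both directions held in every alternative run. *Hspa1a*, at 2.93, 5.07, and 6.83 CPM, was lower by a log2 fold change of −2.75 (SE 0.30, adjusted p = 1.44e-06), and *Hspa1b* by −3.01 (SE 0.28, adjusted p = 1.86e-07). *Dusp1* was higher by 0.41 (adjusted p = 0.0215), but without mouse 3 its value was 0.24 (adjusted p = 0.232). Over 19 alternatives, *Dusp1* ran from 0.032 to 1.54 and passed in 15. *Fosb* was lower at −0.81 (adjusted p = 0.0216), with an adjusted p of 0.0684 without mouse 2 and 0.0954 without mouse 4. *Egr1* (0.27, adjusted p = 0.287) did not pass, and its value was −0.14 without mouse 3. Without TMM scaling, *Fosb* did not pass in ECs (−0.52, adjusted p = 0.121) and *Egr1* did (0.56, adjusted p = 0.0275).

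In stromal cells, *Egr1* had 243, 275, and 273 CPM and was higher by 2.14 (SE 0.18, adjusted p = 5.84e-08), above all values of the other classes. *Hspa1a* was higher by 1.59 (SE 0.19, adjusted p = 2.84e-06) and *Fos* by 1.40 (SE 0.17, adjusted p = 4.15e-06). The stromal types differed in both genes. Mean *Hspa1a* was 141 CPM in smooth muscle cells, 32.8 in pericytes, 23.5 in *Col14a1*-type fibroblasts, 10.9 in myofibroblasts, and 4.37 in *Col13a1*-type fibroblasts. Mean *Fos* was 586 CPM in *Col14a1*-type fibroblasts, 397 in smooth muscle cells, 68.6 in myofibroblasts, 19.1 in *Col13a1*-type fibroblasts, and 16.4 in pericytes. *Jun* was higher by 0.36 (adjusted p = 0.00724, and 0.0543 without mouse 4), and *Ier2* was lower at −0.44 (adjusted p = 0.00533, and 0.0610 without mouse 2). *Junb* was lower at −0.60 (adjusted p = 0.00177), with a value of 0.037 once neutrophils were left out of the immune class. *Atf3* (0.31) and *Dusp1* (0.046) did not pass the test. Over 19 alternatives, *Dusp1* ran from −0.57 to 1.16 and passed in 3. Its lowest value, with cells thinned to 1000 UMIs, was a call in the lower direction (adjusted p = 0.000975). *Atf3* ran from −0.15 to 1.34 and passed in 2 of 19.

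Epithelial cells had the lowest immediate early levels, with 385, 291, and 405 CPM of the 8 immediate early genes together, against 2054, 2049, and 2065 in immune cells, 1352, 1735, and 1469 in ECs, and 1024, 1332, and 1403 in stromal cells. The largest differences were those of *Fosb* (log2 fold change −4.46, adjusted p = 6.35e-09), *Fos* (−2.86, adjusted p = 3.41e-08), and *Egr1* (−2.23, adjusted p = 8.66e-07), and the smallest that of *Jun* (−0.61, adjusted p = 0.000184). The sum of the HSP70 genes was 10.3, 11.9, and 11.1 CPM in epithelial cells and 4.39, 8.19, and 9.02 CPM in ECs. It was 54.5, 63.8, and 59.0 CPM in stromal cells and 151, 123, and 87.9 CPM in immune cells. Without dendritic cells in the immune class, *Hspa1a* had −0.054 (adjusted p = 0.863) and *Hspa1b* 0.19 (adjusted p = 0.571) in epithelial cells, while the other 8 genes still passed.

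**Figure D4:**
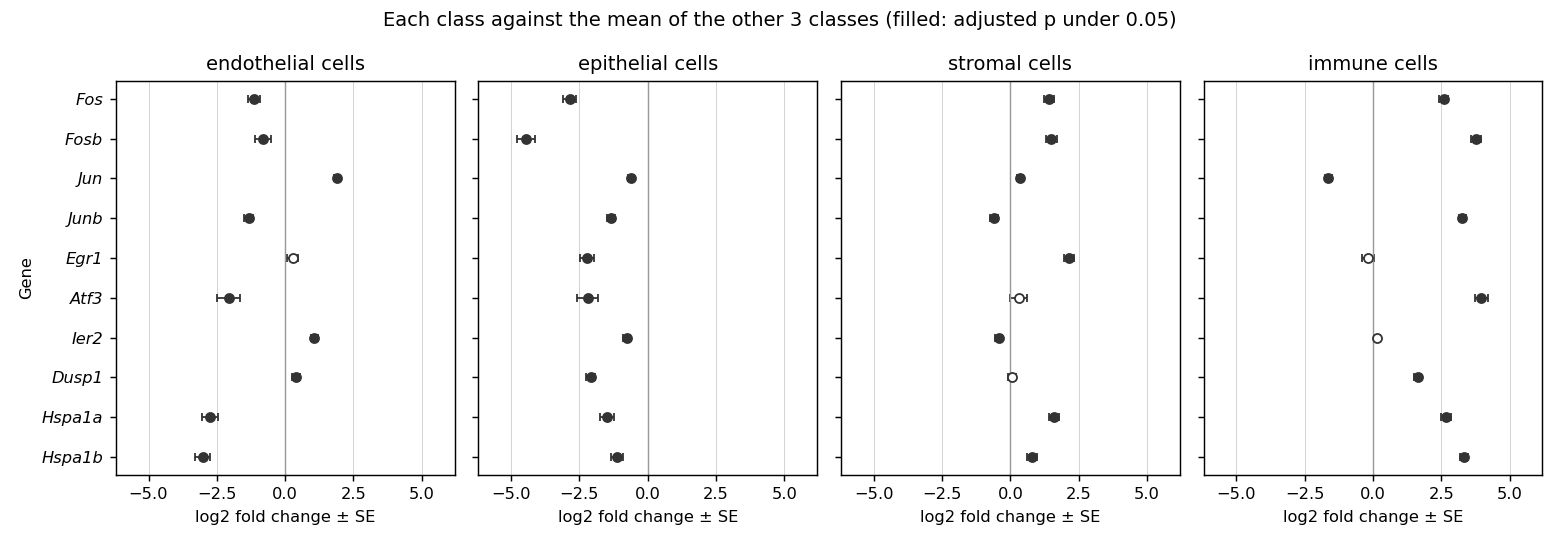
Log2 fold change ± SE of each of the 10 genes in 1 class against the mean of the other 3 classes, from edgeR on sums of 3 mice. Filled points passed an adjusted p of 0.05 and open points did not; all 10 genes lie below 0 in epithelial cells, and *Jun* is the gene with the highest value in ECs (1.88) and the lowest in immune cells (−1.63).

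The 19 types were compared in the same way, each against the mean of the other 18, over 11809 genes. Over all genes and types, 26.7% of contrasts were called higher and 12.6% lower. For the 10 genes, 65 of 190 contrasts were higher and 45 lower. *Col14a1*-type fibroblasts had 10 of 10 genes higher, neutrophils 9, alveolar macrophages and smooth muscle cells 8 each, dendritic cells 7, venous ECs 6, interstitial macrophages 5, and arterial ECs 4. The backgrounds of genes called higher in these types were 29.1%, 24.1%, 16.8%, 34.6%, 25.4%, 23.7%, 14.2%, and 23.8%, respectively. At the other end, 6 genes were lower in AT2 cells and in B cells, and 5 in AT1, NK, and T cells, with backgrounds of genes called lower of 15.3%, 18.8%, 14.3%, 13.6%, and 11.7%.

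Across the types, *Fos* was highest in neutrophils, with a log2 fold change of 6.92 (SE 0.18, adjusted p = 6.42e-38), and lowest in NK cells (−4.51, adjusted p = 7.12e-05). *Jun* was highest in *Car4*-type capillary ECs (2.44, SE 0.16, adjusted p = 3.23e-19) and lowest in NK cells (−5.25, adjusted p = 4.23e-13). *Egr1* had its highest fitted value in neutrophils (3.35, adjusted p = 4.92e-17) and its lowest in AT1 cells (−3.09, adjusted p = 6.91e-07). In mean CPM, *Col14a1*-type fibroblasts (fitted value 3.11) stood above neutrophils, and without TMM scaling the fit had this order too (3.09 against 2.67). *Ier2* had its highest fitted value in neutrophils (2.69, adjusted p = 1.3e-17) and its lowest in pericytes (−2.11, adjusted p = 5.86e-05). AT1 cells, which had the lowest mean CPM of *Ier2*, were close (−2.03, adjusted p = 9.07e-08, and −2.06 without TMM scaling against −1.89 in pericytes), and the CPM of both types overlapped. For *Fos* and *Fosb* as well, the type with the lowest fitted value was not that with the lowest mean CPM. *Fosb* (7.52), *Junb* (6.57), *Atf3* (7.47), and *Dusp1* (5.88) were also highest in neutrophils, with lowest called values of −3.28 in AT2 cells for *Fosb*, −3.23 in pericytes for *Junb*, and −4.59 in B cells for *Dusp1*. *Jun* in neutrophils had a value of 0.56 (adjusted p = 0.0548) and was higher than the mean of the other types in 1 of 3 mice.

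*Hspa1a* (6.58, adjusted p = 3.3e-33) and *Hspa1b* (7.23, adjusted p = 9.97e-32) were highest in dendritic cells. Smooth muscle cells were the next, at 4.36 (adjusted p = 2.34e-23) for *Hspa1a* and 3.90 (adjusted p = 7.34e-16) for *Hspa1b*. The fitted values of *Hspa1a*, *Hspa1b*, and *Atf3* set a type against a mean that takes in types with no UMI, so their size rests on the small count that the fit adds, and the CPM above are the firmer measure. Another 5 types passed for *Hspa1a*, but each lost the call in at least 1 alternative. These were club cells (2.30, adjusted p = 1.46e-05, and 0.0553 without mouse 2), pericytes (2.04, adjusted p = 0.00936, and 0.0509 without mouse 2 or 0.110 without mouse 4), and *Col14a1*-type fibroblasts (1.60, adjusted p = 0.0190, and 0.212 without mouse 2). Neutrophils passed as well (1.86, adjusted p = 0.0241), but not without mouse 4 (0.190) or without TMM scaling (0.130). Interstitial macrophages passed (2.26, adjusted p = 0.0354, and 0.0512 with the mouse as a block), but not without mouse 3 (0.316) or mouse 4 (0.0884), and had no *Hspa1a* UMI in mouse 2. *Hspa1b* passed in 4 of these 5 types, without pericytes. For *Hspa1b* the values were 3.23 in interstitial macrophages (adjusted p = 0.00201, and 1 without mouse 3), 2.58 in neutrophils (adjusted p = 0.00386, and 0.1197 without mouse 4), 2.16 in club cells (adjusted p = 0.00158, and 0.134 without mouse 2), and 1.97 in *Col14a1*-type fibroblasts (adjusted p = 0.0118, and 0.0739 without mouse 3).

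In *Col14a1*-type fibroblasts, *Fos* was lowest in mouse 2. *Fos* had 266 CPM in mouse 2 and 695 and 797 in the others, with a log2 fold change of 3.66 (SE 0.24, adjusted p = 2.58e-19), and *Egr1* had 3.11 (SE 0.22, adjusted p = 6.05e-18). *Atf3* (2.60, adjusted p = 0.00022) and *Dusp1* (1.18, adjusted p = 6.38e-05) were higher in 2 of 3 mice. The count of 10 genes fell to 8 without mouse 3 and to 7 with cells thinned to 1000 UMIs. Without mouse 2 *Hspa1a* lost its call (adjusted p = 0.212), and without mouse 4 no call was lost (highest adjusted p = 0.0385, *Dusp1*). Alveolar macrophages had 5 to 8 genes higher over the alternatives. Without mouse 4, *Fosb* (adjusted p = 0.0603), *Jun* (0.559), and *Ier2* (0.0805) did not pass in them, nor did *Jun* without mouse 2 (0.0601). Mouse 2 gave 13 of the 72 alveolar macrophages, and the 7 cells with most *Fos* held 76.9% of its UMIs. Smooth muscle cells were steadier, with 8 genes higher in every alternative run. These were *Hspa1a* and *Hspa1b* as above, *Fos* (3.03, adjusted p = 3.18e-17), *Egr1* (2.51, adjusted p = 2.55e-16), *Atf3* (2.66, adjusted p = 1.4e-07), *Fosb* (2.40, adjusted p = 9.14e-09), *Jun* (1.56, adjusted p = 9.04e-12), and *Dusp1* (0.88, adjusted p = 0.000908), while *Ier2* was lower (−0.79, adjusted p = 0.00322).

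Single types were also compared with each other in 5 pairs. Neutrophils against B cells had all 10 genes higher, where 51.3% of all genes differed in either direction and 23.9% were higher. The log2 fold changes ran from 3.29 for *Jun* to 10.40 for *Atf3*, which had 0, 3, and 1 UMIs in the B cells of mice 2, 3, and 4. Myofibroblasts against *Col13a1*-type fibroblasts, both fibroblast types of the growing alveolus, had 3 genes higher and 0 lower. Of all genes, 30.2% differed in either direction there, 15.5% higher and 14.7% lower. In that pair *Jun*, at 189, 190, and 219 CPM against 32.5, 66.9, and 42.3, was higher by 1.99 (SE 0.31, adjusted p = 4.51e-07), and *Egr1* by 1.99 (SE 0.37, adjusted p = 1.97e-05). *Fos* was higher by 1.74 (adjusted p = 0.00588, and 0.0813 without mouse 2 or 0.0587 without mouse 4). AT2 against AT1 cells differed in opposite ways for a pair of genes (background 35.9%). *Ier2*, at 77.5, 61.4, and 74.3 CPM in AT2 cells and 22.6, 34.0, and 50.05 in AT1 cells, was higher by 1.29 (adjusted p = 0.00239, and 0.112 without mouse 2). *Dusp1*, at 38.8, 48.5, and 50.5 CPM against 116, 108, and 199, was lower at −1.31 (adjusted p = 0.00223, and 0.0758 without mouse 4).

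*Aplnr*-type against *Car4*-type capillary ECs differed in 1 gene, *Junb*, where 9.31% of all genes differed. *Junb*, at 43.4, 53.4, and 38.2 CPM against 122, 104, and 81.9, was lower at −1.16 (SE 0.39, adjusted p = 0.0476), and without mouse 2 (adjusted p = 0.270) or mouse 4 (adjusted p = 0.125) it did not pass. *Jun* had a difference of −0.65 (SE 0.25, adjusted p = 0.0919), with 3 of 3 mice lower in *Aplnr*-type cells. Interstitial against alveolar macrophages differed in 3 genes (background 15.5%). *Hspa1a* (adjusted p = 0.0380, and 0.0540 with the mouse as a block) and *Hspa1b* (adjusted p = 0.0268) were higher in interstitial macrophages, whose mean levels were at least 6.08-fold and 6.02-fold above the limit that no UMI in alveolar macrophages allows. Without mouse 3, neither passed (adjusted p = 0.266 and 0.733), and *Hspa1a* did not pass without mouse 2 (0.0680) or mouse 4 (0.106) either. *Atf3* was lower at −2.01 (adjusted p = 0.0337), did not pass without mouse 2 (0.615) or mouse 4 (0.256), and turned to 1.19 (adjusted p = 0.00428) when no filter on cells was used.

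The mice were not ordered in a single way. Of 19 types, *Fos* was highest in mouse 2 in 3 types, in mouse 3 in 8, and in mouse 4 in 8, and lowest in mouse 2 in 11. *Junb* went the other way, with mouse 2 highest in 10 types. Between the highest and the lowest mouse, the median fold over types was 1.43 for *Ier2*, 1.56 for *Jun*, 2.15 for *Fos*, and 4.11 for *Fosb*. For the sum of the 8 immediate early genes it was 1.48, and the largest was 2.90, so differences between types such as neutrophils and B cells were far larger than those between mice.

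Within types, the immediate early genes went together weakly from cell to cell. Over sets of at least 50 cells of 1 type and mouse (52 to 884 cells), the median r of the 28 pairs of immediate early genes ranged from 0.0322 for *Fosb* and *Ier2* to 0.263 for *Egr1* and *Ier2*, with a median of 0.104. *Egr1* and *Ier2* had an r above 0 in 32 of 32 sets, but a median of 0.0443 once cells were thinned to 1000 UMIs. *Fos* and *Fosb* had a median of 0.225. For the 16 pairs of an immediate early and a heat shock gene the median was 0.00458. *Hspa1a* and *Hspa1b* had a median of −0.0109, with an r above 0 in 10 of 25 sets, and 0.0667 over 12 sets with thinned cells. These values share cells and depth and are given as a description. In smooth muscle cells, r of *Fos* over cells of mice 2, 3, and 4 was 0.627, 0.623, and 0.691 with *Fosb*, 0.536, 0.481, and 0.545 with *Junb*, and 0.521, 0.528, and 0.598 with *Egr1*. Single sets of other types went higher, up to 0.740 for *Fos* with *Egr1* (74 *Col13a1*-type fibroblasts of mouse 3) and 1 for *Fos* with *Fosb* (77 NK cells of mouse 3). That r of 1 rests on 1 cell, as *Fos* and *Fosb* were each found in only 1 NK cell of mouse 3. In neutrophils, where nearly all cells had *Fos*, r of *Fos* was 0.349, 0.251, and 0.287 with *Dusp1* and 0.152, 0.149, and 0.147 with *Fosb*.

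Among genes outside the 10, those with the most similar levels over the 19 type means were found by Pearson's r of log2(CPM + 1) over 11809 genes. For *Fos* these were *Nr4a1*, an immediate early nuclear receptor (r = 0.862), and *Zfp36*, which destabilizes inflammatory mRNA (0.861), and then *C130050O18Rik* (0.832). *Zfp36* was also first for *Fosb* (0.885), *Junb* (0.915), and *Atf3* (0.921). *Jun* was nearest to *Adam15* (0.895), *Klf4* (0.876), a factor of resting endothelium, and *Tle1* (0.871). *Egr1* was nearest to *Nr4a1* (0.816), *Ier2* to *Klf10* (0.876), and *Dusp1* to *Zfand2a* (0.898). The nearest to *Hspa1a* was *Rbpj* (0.747) and to *Hspa1b* *Kif5a* (0.755), lower values than for any of the 8 immediate early genes. All r are over 19 means of the same 3 libraries.

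A list of 45 symbols of other immediate early genes was read in the same fits. Of these, 43 were found in the count tables and 42 were tested. In neutrophils 38 of 42 were higher, against a background of 24.1%, led by the nuclear receptor *Nr4a3* (8.48) and the FOS family gene *Fosl1* (8.42). In the classes, 29 were higher and 8 lower in immune cells (69.0% and 19.0%, against backgrounds of 37.7% and 38.3%). In ECs 11 and 19 were (26.2% and 45.2%, against 29.7% and 30%), and in stromal cells 13 and 20 (31.0% and 47.6%, against 36.3% and 30.5%). In epithelial cells 2 and 30 were (4.76% and 71.4%, against 34.5% and 36.7%). In log2 fold change, ECs were led by *Sgk1*, a kinase of salt and stress signals (4.02), and *Klf4* (3.23), and lowest for *Cebpb*, a myeloid factor (−4.08), and *Nr4a3* (−3.67). Immune cells were led by *Fosl1* (6.63) and the phosphatase *Dusp2* (6.53) and lowest for *Cyr61*, a matrix protein (−5.08), and *Rhob*, a small GTPase (−2.56). Stromal cells were led by *Cyr61* (4.34) and *Gadd45g* (1.63) and lowest for *Dusp2* (−3.72) and *Tnfaip3*, an inhibitor of NF-kappaB (−2.36). In epithelial cells the 2 genes that were higher were *Dusp4* (2.04) and *Gadd45g* (0.41), and the lowest were *Klf2* (−4.55) and *Egr2* (−3.23). In dendritic cells 22 of 42 were higher and 5 lower, where 25.4% and 13.3% of all genes were. In smooth muscle cells 12 of 42 (28.6%) were higher and 11 (26.2%) lower, against backgrounds of 34.6% and 12.6%.

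A list of 24 other heat shock and chaperone genes was read as well. In dendritic cells 10 of 23 tested were higher and 3 lower, against backgrounds of 25.4% and 13.3%. The largest increases were those of the mitochondrial chaperonin gene *Hspe1* (1.25, adjusted p = 2.64e-14) and of *Hspa8*, the constitutive HSP70 (1.202, adjusted p = 1.87e-19). These sizes cannot be ranked against the 6.58 of *Hspa1a*, which rests on the small count that the fit adds. The lowest were *Dnajb4* (−3.33, adjusted p = 4.09e-08) and *Bag3*, an HSP70 partner also driven by HSF1 (−2.09, adjusted p = 2.53e-05). In neutrophils 5 of 23 (21.7%) were higher and 10 (43.5%) lower, against backgrounds of 24.1% and 22.6%. In the classes all 24 were tested, and 11 (45.8%) were higher and 11 (45.8%) lower in immune cells (backgrounds 37.7% and 38.3%). In stromal cells 9 (37.5%) and 4 (16.7%) were (36.3% and 30.5%), and in ECs 4 (16.7%) and 10 (41.7%) (29.7% and 30%). Epithelial cells, lowest for the immediate early genes, had 12 (50%) higher and 3 (12.5%) lower (34.5% and 36.7%). The median log2 fold change of the list in epithelial cells was only 0.19. Without TMM scaling, the median of all genes there moved by −0.36, a larger step. The small heat shock genes *Hspb8* (3.31) and *Cryab* (3.07) led in epithelial cells, where *Hsph1* (−0.34) and *Ahsa1*, an HSP90 partner (−0.21), were lowest. ECs were led by *Hspb1*, another small heat shock gene (1.06), and *Bag3* (1.01) and lowest for *Cryab* (−1.98) and *Hspa2* (−1.91). Stromal cells were led by the HSP70 family gene *Hspa1l* (6.39) and *Cryab* (3.47) and lowest for *Hspa8* (−0.60) and *Stip1* (−0.31), and immune cells were led by *Hspe1* (1.03) and *Hsph1* (0.73) and lowest for *Hspb1* (−5.94) and *Hspb8* (−5.33). Of 20 kinases and factors upstream, 8 (40.0%) were higher and 7 (35.0%) lower in both immune and stromal cells, near the backgrounds of 37.7% and 38.3% in immune cells and 36.3% and 30.5% in stromal cells. In ECs 8 were higher and 4 lower (backgrounds 29.7% and 30%), and in epithelial cells 3 and 12 (34.5% and 36.7%). In neutrophils 11 of 19 tested (57.9%) were higher and 3 (15.8%) lower, against backgrounds of 24.1% and 22.6%. In dendritic cells 3 of 19 (15.8%) were higher and 2 (10.5%) lower, against 25.4% and 13.3%.

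Droplets with more than 20% mitochondrial UMIs, which were left out above, were compared with kept droplets of the same class, over UMIs of 13355 genes that are not mitochondrial. Their class came from each droplet's own UMIs. There were 756 such droplets of immune cells, 68 of stromal cells, 63 of epithelial cells, and 75 of ECs. In immune droplets 11.6% of all genes were lower and 10.7% higher, and 3 of the 10 genes were lower. *Junb*, at 405, 351, and 435 CPM against 755, 756, and 710 in kept droplets, was lower at −1.02 (SE 0.21, adjusted p = 0.000692). *Dusp1*, at 112, 263, and 289 CPM against 457, 469, and 478, was lower at −1.16 (SE 0.26, adjusted p = 0.00148). *Atf3*, at 10.2, 48.3, and 66.0 CPM against 112, 75.2, and 74.6, was lower at −1.12 (adjusted p = 0.0228), but without mouse 2 its value was −0.49 (adjusted p = 0.217). Neutrophil markers moved with these results, at 662, 1426, and 416 CPM in the high-mitochondrial droplets and 8019, 8487, and 9541 CPM in the kept ones. Among immune droplets with at least 3 UMIs of B cell markers, chosen after seeing the data, 0 of the 10 genes passed (1 at an unadjusted p under 0.05).

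In epithelial droplets 1 gene passed (background 14.8%). *Jun*, at 209, 35.5, and 112 CPM against 158, 114, and 159 in kept droplets, was lower at −0.93 (adjusted p = 0.0316), although mouse 2 had the higher value in the high-mitochondrial droplets, and it did not pass without mouse 3 (0.0636) or mouse 4 (0.291). In EC droplets edgeR called 0 of the 10 genes (3 at an unadjusted p under 0.05, 0 with DESeq2), where 1.41% of all genes were called. In stromal droplets it called 0 (1 at an unadjusted p under 0.05, 1 with DESeq2), with a background of 7.16%. There were 17 to 31 high-mitochondrial EC droplets per mouse, and with no filter on low counts 1 of the 10 genes was called in ECs.

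**Figure D5:**
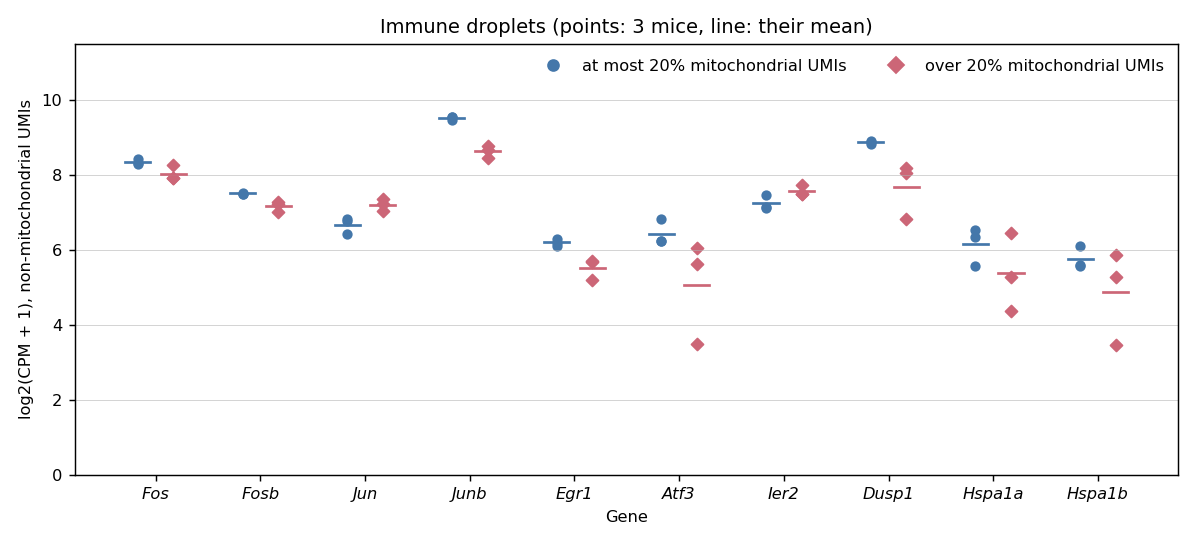
Level in log2(CPM + 1), over UMIs that are not mitochondrial, of the 10 genes in immune droplets kept (at most 20% mitochondrial UMIs) and in immune droplets with more, with 1 point per mouse and a line at the mean of 3 mice. *Junb* and *Dusp1* lie lower in the high-mitochondrial droplets of all 3 mice, as does *Atf3*, whose gap is widest in mouse 2 (10.2 against 112 CPM).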

How the data were processed

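Lungs of 3 room air mice were profiled by 10x 3′ v3 scRNA-Seq. The authors processed each library with Cell Ranger 3.0.2 against mm10, per the submitters' processing notes, and deposited UMI counts per gene and droplet, without normalization. The annotation and strand setting of the counting are not given in the sources used here. The labels give 16000 cells loaded per chip. Every library held droplets of at least 500 UMIs, and chi-square per degree of freedom between pairs of libraries was 36.0, 8.68, and 29.9, far more than sampling noise.

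Cells passing a minimum of 200 genes and a limit of 20% mitochondrial UMIs were normalized with SCTransform and clustered (Seurat 5.3.0, sctransform 0.4.2, R 4.3.3, 3000 variable genes, 30 principal components, resolution 0.8). Thresholds for naming clusters were chosen with the clusters in view. The genes and lists were chosen with earlier results of these data known. The text names each of the 10 genes, its highest and lowest type past the threshold, its most similar genes, and for the immediate early and heat shock lists the 2 genes with the largest called changes up and down per class, and further genes were named after their values were seen. Doublets were scored from simulated pairs, 0.8% per 1000 cells (46, 54, and 56 cells) were marked, and they were kept in the main analysis.

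UMIs were summed per mouse and class or type (at least 10 cells) and compared with edgeR 4.0.16 (quasi-likelihood, TMM, filterByExpr, Benjamini-Hochberg). DESeq2 1.42.0 was an alternative. In the fits, the SE is the log2 fold change divided by the root of its F. An exact permutation test of 3 mice against 3 cannot go below p = 0.1 and was not used. Sums of 1 mouse come from 1 animal: their deviations correlated with a median r of 0.126 over 18 pairs of class sums (−0.0347 to 0.266, 4453 genes) and 0.0326 over 513 pairs of type sums, and a fit that blocks on the mouse was made as well. The fits were checked on simulated counts in which 200 genes moved by a log2 change of 2, and edgeR recovered 96.5% for ECs against the other classes (13612 genes), 92.5% for dendritic cells (10140 genes), and 81.5% for high-mitochondrial immune droplets (12615 genes). Other alternatives were other filters, resolutions, and variable genes, log-normalization, doublet removal, classes read from the UMIs of single cells, cells thinned to 1000 UMIs, no TMM, no filter on low counts, and leaving out each mouse. Promoters were read from RefSeq (GRCm38.p6).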

Additional observations from a re-analysis of the deposited data

How the results depend on the processing

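Each single-gene result was counted once for each alternative it was run in. Of these counts for results past the threshold, 1142 kept their direction and their side of it, 63 kept the direction only, and 15 changed direction. Of the counts for results that had not passed, 72 stayed so, 11 passed, and 12 changed direction. The classes called 9, 10, 8, and 8 of the 10 genes in ECs, epithelial, stromal, and immune cells, and with each mouse left out 8 to 8, 10 to 10, 7 to 8, and 8 to 8. Over types, 65 contrasts were called higher and 45 lower. With a mouse left out these were 56 to 61 and 39 to 45, and with cells thinned to 1000 UMIs 56 were called higher and 20 lower (the cause was not tested). With the mouse as a block, 3 calls were lost, *Hspa1a* in interstitial against alveolar macrophages (adjusted p = 0.0540) and in interstitial macrophages against the other types (adjusted p = 0.0512), and *Junb* in NK cells (0.0504), and the block changed no other call.

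In high-mitochondrial against kept droplets, the count in immune droplets (3) was 0 among droplets with B cell markers, 10 with a limit of 10% mitochondrial UMIs, 8 with no filter on low counts, and 2 to 5 with a mouse left out. The count in epithelial droplets (1) was 0 with DESeq2, with a limit of 10%, with no TMM, and in the fit with B cell droplets, and 0 to 2 with a mouse left out. In EC droplets (0) it was 1 with no filter on low counts and 0 to 0 with a mouse left out, and in stromal droplets (0) it was 1 with DESeq2 and with a limit of 10% and 0 to 0 with a mouse left out. The cause was not tested.

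Directions turned as follows on the log2 scale. With neutrophils left out of the immune class, the values were 0.037 for *Fosb* in ECs, 0.037 for *Junb* in stromal cells, and −0.30 for *Ier2* and −1.35 for *Dusp1* in immune cells. With dendritic cells left out, they were 0.19 for *Hspa1b* in epithelial cells, −0.00447 for *Dusp1* in stromal cells, and −1.67 for *Hspa1a* and −0.57 for *Hspa1b* in immune cells. With both left out, they were 0.30 for *Fosb* in ECs, 0.19 for *Hspa1a* and 0.34 for *Hspa1b* in epithelial cells, 0.12 for *Junb* in stromal cells, and −0.28 for *Fos*, −0.39 for *Ier2*, −1.74 for *Dusp1*, −2.40 for *Hspa1a*, and −1.02 for *Hspa1b* in immune cells. With a stricter filter on cells (500 genes, 10% mitochondrial UMIs), *Egr1* had −0.18 in ECs and 0.36 in immune cells, and *Dusp1* −0.14 in stromal cells. With thinning, *Egr1* had 0.34 in immune cells (adjusted p = 0.0631) and *Dusp1* −0.57 in stromal cells (adjusted p = 0.000975). With each mouse left out, *Egr1* ranged from −0.14 to 0.53 in ECs, and *Atf3* from −0.15 to 0.90 and *Dusp1* from −0.00866 to 0.15 in stromal cells, with the lowest values without mouse 3. With no filter on cells, *Atf3* had 1.19 in interstitial against alveolar macrophages. For these too the cause was not tested, apart from the cells left out. Without TMM, the median of all genes moved by −0.65 in neutrophils against the other types and by 0.46 in EC and epithelial and 0.72 in stromal high-mitochondrial droplets.

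Calls were also lost for *Fosb* in ECs (with doublets removed, no TMM, class from each cell's own UMIs, and mouse 2 or 4 left out) and for *Dusp1* in ECs with the stricter filter on cells (0.032). Of 230 levels, 205 moved by less than 1 SD with mitochondrial UMIs left out of the total and 188 with the mean over cells. Depth limits *Hspa1a*, *Hspa1b*, and *Atf3* in the types with no UMI.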
